A study of Homo sapiens with 6 samples.

Results

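The tight junction, desmosome and polarity genes described here are 42 of the 40396 genes measured, chosen by gene symbol and matched through their Ensembl IDs. The choice was made with earlier results of these data known, so shares of called genes are descriptions only. They comprised 12 claudins, 4 other tight junction membrane proteins, 4 tight junction plaque proteins, 3 desmosomal cadherins, 6 desmosomal plaque proteins, 3 adherens junction proteins (2 catenins and afadin), 4 proteins of the PAR and atypical protein kinase C complex, 2 of the Crumbs complex and 4 of the Scribble module. RNA-seq had been done on H1 cells, an established human embryonic stem cell line, on day 3 of differentiation into definitive endoderm (DE) on Matrigel. All 6 libraries came from cells given 50 ng/mL activin A for the whole period and 2.5 µM CHIR99021, a glycogen synthase kinase inhibitor that activates Wnt signalling, for the first 24 h. The 3 SAR libraries also received 0.5 µM saracatinib (SAR), an inhibitor of Src family kinases, from the start to day 3, and the 3 control libraries received the same volume of DMSO. At this concentration the paper reports no effective loss of Src phosphorylation, but less phosphorylation of focal adhesion kinase at some of its sites. The comparison asked how SAR acts on DE differentiation. All libraries come from 1 cell line, and no library of cells before differentiation was analysed. The labels do not say whether the replicates were separate cultures, so p-values measure the spread between these libraries, which may be technical.

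Epithelial cells are held together by a belt of junctions near their apical side. In the tight junction, claudins form strands that seal the space between cells or make it selectively leaky, occludin and tricellulin join these strands, and plaque proteins such as the ZO proteins and cingulin tie them to actin. Desmosomes couple neighbouring cells to the keratin network, adherens junctions couple them to actin, and the PAR, Crumbs and Scribble modules set which side of the cell is apical. DE, the germ layer that gives rise to the lining of the gut and to liver and pancreas, descends from the epithelium of the epiblast and later forms epithelium again.

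Levels are given as FPKM, a level set relative to gene length and to the total of the library. Comparison between genes depends on the gene lengths used. Library totals recovered from these values ran from 18877964 to 24419937 reads in control and from 16681280 to 18389543 with SAR, and control 1 had 33169 genes above 0 against 29506 to 30109 in the other libraries. Of the 11 DE markers, all tested, 4 were higher with SAR in limma's test (SOX17, FOXA2, FOXA1 and HHEX) and 6 were lower (CXCR4, GATA4, GATA6, EOMES, GSC and CER1). CER1 stood at 3540 to 4603 FPKM in control and 1645 to 1714 FPKM with SAR, so a defining DE marker was abundant in both groups; the labels also list the cell type as ESCs. Of the 7 pluripotency markers 2 were higher and 1 lower, of 9 mesoderm markers 5 could be tested with 2 higher and 2 lower, of 6 neural ectoderm markers 2 could be tested with 0 called (0 at an unadjusted p under 0.05 in limma, 1 lower with voom), and of 7 extraembryonic markers only GATA3 could be tested and it was higher. PAX6, a defining marker of neural ectoderm, was at or under 0.106 FPKM in all libraries, and CGA, a marker of trophoblast, at or under 0.0230 FPKM. Summed over each list, the markers ran from 3949 to 5048 FPKM in control and from 2036 to 2101 FPKM with SAR for DE, mostly CER1, from 720 to 833 FPKM in control and from 879 to 903 FPKM with SAR for pluripotency, from 62.9 to 65.6 and from 38.9 to 51.2 FPKM for mesoderm, from 212 to 225 and from 209 to 221 FPKM for neural ectoderm, and from 1.32 to 2.20 and from 2.64 to 3.91 FPKM for extraembryonic cells. The neural ectoderm sum was nearly all OTX2 and NES, while PAX6, SOX1, ZIC1 and PAX3 were too low to be tested. The fall of the mesoderm sum was mostly that of MIXL1 (log2 fold change -1.35), and KDR was also lower (-0.22). The mesoderm markers TBXT and TBX6 were higher (1.69 and 0.82), so that list did not fall as a whole. The part of these marker changes in the results on junction genes was not tested. In RNA from whole cultures, fewer cells of a type and less RNA per cell cannot be told apart.

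SAR-treated DE cells carried more mRNA of 11 of the 19 tested tight junction genes among the 42, and a different mix of claudins. Most desmosome, catenin and polarity genes did not pass the test. Most genes of the whole table did not pass either, as 33.3% of all tested genes were called in either direction. Claudin 18, claudin 3, claudin 4, occludin and ZO-3 (CLDN18, CLDN3, CLDN4, OCLN and TJP3) rose past a log2 fold change of 1, whereas claudin 11 (CLDN11) fell by 1.56 on the log2 scale. The test was limma on log2(FPKM + 0.1) for genes that averaged 0.5 FPKM or more, with p-values adjusted over all 16371 genes tested. Of the 42 genes, 39 could be tested, and CLDN9, DSC3 and PKP1 were below the minimum. At an adjusted p under 0.05, 15 of the 39 were higher with SAR (38.5%) and 3 were lower (7.69%), against 23.7% and 9.55% of all tested genes. With a log2 fold change above 1 as well, 5 of the 39 were upregulated, and with one under -1, 1 was downregulated, against 3.41% and 1.58% of all tested genes. The median log2 fold change was 0.13 over the 39 genes and 0.12 over all tested genes, so the typical gene of the whole table was itself shifted upwards. After median-ratio rescaling of the libraries, which sets that shift to about 0, 12 of the 39 genes were higher and 8 lower, against 13.7% and 15.5% of all tested genes, and their median was 0.01. The upregulated genes were then 3, without CLDN4 and OCLN, against 2.43% of all tested genes, and CLDN11 remained the 1 downregulated gene (2.22%). With voom on recovered reads, 13 of the 39 were higher, 7 lower and 3 upregulated, against 16.5%, 18.1% and 3.04% of all tested genes, of which 34.6% were called in either direction. In the data as deposited, 9 of the 39 were higher without control 3, and 1 was lower without control 2, control 3, SAR 1 or SAR 2. The shares of all tested genes with a library left out were not counted, so these counts describe the 39 only.

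The calls were not spread evenly over the junction types, although the difference between the types was not tested. Of 19 tested tight junction genes 11 were higher (57.9%) and 2 lower, with a median log2 fold change of 0.46, and all 6 genes past the fold threshold were among them. Of 7 tested desmosome genes 2 were higher (28.6%) and 0 lower in limma, with 1 lower, DSG2, at an unadjusted p under 0.05 and with voom. Among all tested genes 23.7% were higher and 9.55% lower, so the share of desmosome genes that were higher is near that of the whole table. Of 13 tested catenin, afadin and polarity genes 2 were higher (15.4%) and 1 lower, with a median of -0.05. After rescaling, the counts were 9 higher and 2 lower for tight junction genes, 2 and 1 for desmosome genes and 1 and 5 for the catenin, afadin and polarity genes, against 13.7% and 15.5% of all tested genes. In all 18 called genes the SAR libraries lay wholly above or wholly below the control libraries, which selection by adjusted p makes likely. Of the 39 tested genes, 17 had every SAR library above every control library and 6 every one below. Among all tested genes, 35.5% had every SAR library above every control library and 15.2% had every one below.

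**Figure D1:**
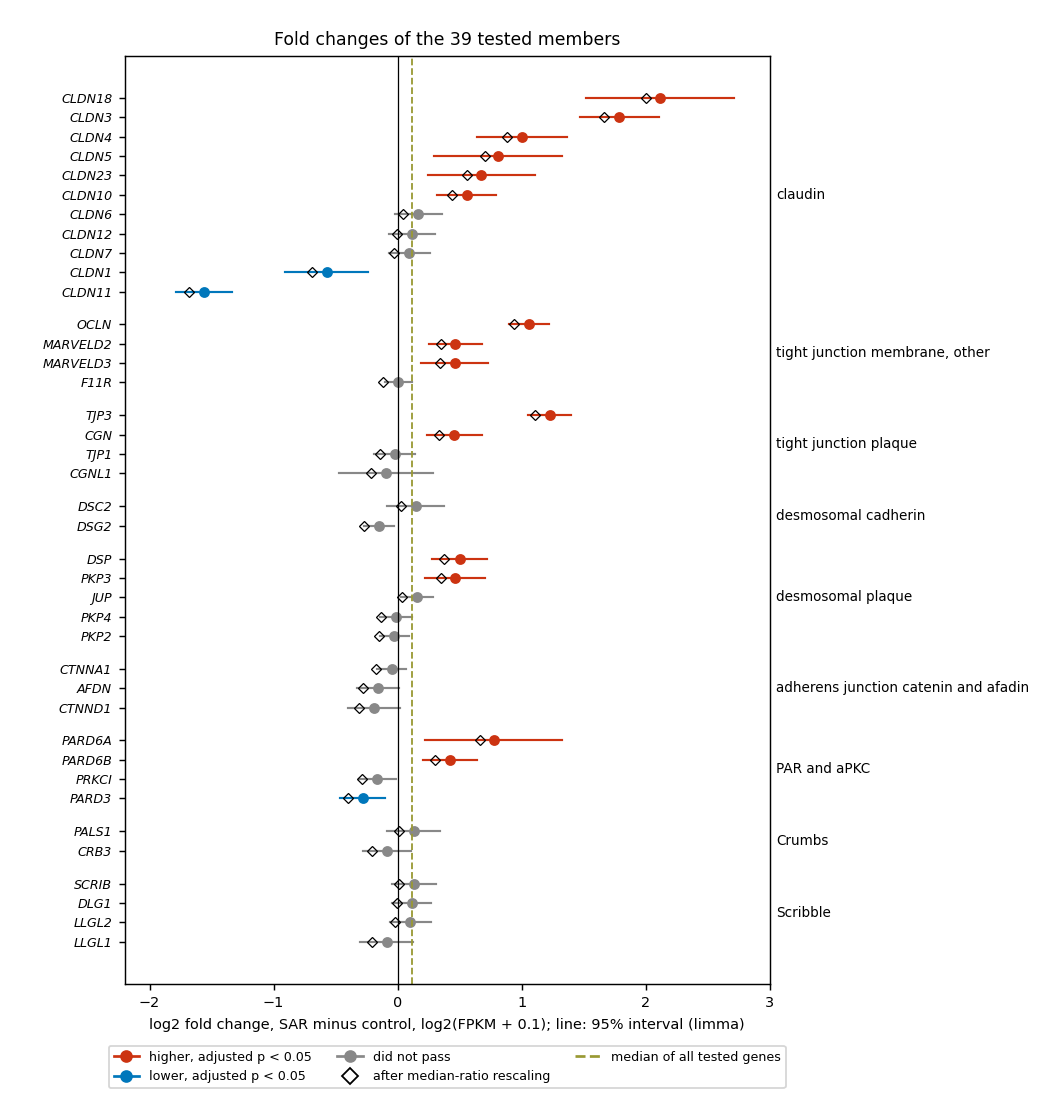
Log2 fold change (SAR minus control, on the log2(FPKM + 0.1) scale) of each of the 39 tested genes on the horizontal axis, grouped by class, with limma's 95% interval as a line, red for higher, blue for lower and grey for genes that did not pass; open diamonds give the value after median-ratio rescaling, and the dashed line the median of all tested genes (0.12). Tight junction genes span the range from -1.56 (CLDN11) to 2.12 (CLDN18), and the genes of the Crumbs and Scribble classes lie between -0.09 and 0.13.

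Among the claudins, 6 of 11 tested genes were higher with SAR, 2 were lower and 3 did not pass, against 23.7% higher and 9.55% lower among all tested genes. After rescaling the counts were 5 and 2, against 13.7% and 15.5%. CLDN18, a claudin known from stomach and lung epithelium, showed the highest fold change of the 39 genes. It was measured at 0.836, 0.540 and 0.442 FPKM in control 1 to 3 and at 2.24, 2.89 and 3.67 FPKM in SAR 1 to 3. All SAR libraries were thus above all control libraries, at a low level that rested on 31 to 68 reads per library in control and 139 to 251 with SAR. The mean level was 0.606 ± 0.205 FPKM (SD, n = 3) in control and 2.94 ± 0.717 FPKM with SAR, a ratio of 4.85. The log2 fold change was 2.12 (SE 0.253, adjusted p = 0.00202, limma), and 1.29 with a pseudocount of 1 FPKM.

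CLDN11 showed the most negative fold change. This claudin is known from the myelin of oligodendrocytes and from Sertoli cells. It was at 20.5, 23.4 and 22.3 FPKM in control and at 6.63, 7.33 and 8.31 FPKM with SAR. The groups were far apart, and the levels within each differed little. The mean level was 22.1 ± 1.49 FPKM (SD, n = 3) in control against 7.42 ± 0.841 FPKM with SAR, and the log2 fold change was -1.56 (SE 0.0948, adjusted p = 0.000254, limma). Exons of another annotated gene on the same strand, AC026316.5, cover 18.3% of the exon bases of CLDN11, and reads there cannot be assigned to 1 of the genes.

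CLDN3 and CLDN4 are sealing claudins that both serve as receptors of a Clostridium enterotoxin. The genes lie 29.3 kb apart on opposite strands of chromosome 7 in GRCh38 (GENCODE 29), CLDN3 at chr7:73768997-73770270 and CLDN4 at chr7:73799542-73832693. CLDN3 was at 5.70, 6.62 and 6.195 FPKM in control and at 24.8, 17.4 and 23.0 FPKM with SAR. Its mean level rose from 6.17 ± 0.463 to 21.8 ± 3.87 FPKM (SD, n = 3), with a log2 fold change of 1.79 (SE 0.135, adjusted p = 0.000514, limma). CLDN4 was at 4.81, 3.22 and 4.10 FPKM in control and at 7.16, 8.20 and 9.01 FPKM with SAR. For CLDN4 the mean level rose from 4.04 ± 0.798 to 8.12 ± 0.931 FPKM, with a log2 fold change of 1.00 (SE 0.154, adjusted p = 0.00459, limma). Both neighbours were above the control range in all SAR libraries, and the log2 change of CLDN4 was 0.88 after rescaling, under the threshold of 1.

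The promoters of these claudins are printed because CLDN18, CLDN3 and CLDN4 were the upregulated claudins and CLDN11 the downregulated one. They are the 300 bases from 250 before to 50 after a RefSeq start site, on GRCh38.p14, and 30 of the 42 genes had an entry. CLDN18 and CLDN11 were chosen as the genes with the highest and the lowest fold change, while CLDN3 and CLDN4 were added after their values were seen. Capitals mark CACCTG read on either strand, the E-box bound by SNAI and ZEB factors, which repress epithelial genes. CLDN18 has a start site with its window at chr3:137998566-137998865 (plus strand) and another at chr3:138009915-138010214 (plus strand), CLDN11 has windows at chr3:170418618-170418917 and chr3:170420976-170421275 (plus strand), CLDN3 at chr7:73770221-73770520 (minus strand) and CLDN4 at chr7:73830746-73831045 (plus strand).
CLDN18, first start site: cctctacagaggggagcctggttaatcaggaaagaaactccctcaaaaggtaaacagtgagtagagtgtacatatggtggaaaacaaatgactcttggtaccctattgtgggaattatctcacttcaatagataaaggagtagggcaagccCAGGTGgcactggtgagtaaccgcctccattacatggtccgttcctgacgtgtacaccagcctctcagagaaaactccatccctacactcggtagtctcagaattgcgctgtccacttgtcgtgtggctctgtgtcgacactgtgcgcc
CLDN18, second start site: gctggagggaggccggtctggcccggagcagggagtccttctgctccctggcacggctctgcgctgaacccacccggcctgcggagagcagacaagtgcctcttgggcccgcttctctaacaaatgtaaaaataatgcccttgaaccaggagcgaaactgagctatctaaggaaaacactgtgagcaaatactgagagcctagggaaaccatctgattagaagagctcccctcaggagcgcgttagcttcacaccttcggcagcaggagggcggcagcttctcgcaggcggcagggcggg
CLDN11, first start site: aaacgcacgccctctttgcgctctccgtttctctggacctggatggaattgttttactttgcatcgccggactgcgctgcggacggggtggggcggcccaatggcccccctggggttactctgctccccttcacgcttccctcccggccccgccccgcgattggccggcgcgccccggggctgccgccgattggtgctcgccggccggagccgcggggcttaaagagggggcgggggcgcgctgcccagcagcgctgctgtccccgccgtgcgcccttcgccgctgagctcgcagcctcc
CLDN11, second start site: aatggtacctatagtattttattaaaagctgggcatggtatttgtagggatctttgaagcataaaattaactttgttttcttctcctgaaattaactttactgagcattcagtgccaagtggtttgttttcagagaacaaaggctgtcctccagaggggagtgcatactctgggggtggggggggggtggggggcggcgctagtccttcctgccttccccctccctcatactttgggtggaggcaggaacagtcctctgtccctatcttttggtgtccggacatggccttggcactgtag
CLDN3: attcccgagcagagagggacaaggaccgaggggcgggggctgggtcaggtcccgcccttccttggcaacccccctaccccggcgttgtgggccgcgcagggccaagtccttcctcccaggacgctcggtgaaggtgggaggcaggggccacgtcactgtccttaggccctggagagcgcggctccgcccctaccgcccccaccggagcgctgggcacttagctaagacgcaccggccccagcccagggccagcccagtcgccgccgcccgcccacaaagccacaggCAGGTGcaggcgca
CLDN4: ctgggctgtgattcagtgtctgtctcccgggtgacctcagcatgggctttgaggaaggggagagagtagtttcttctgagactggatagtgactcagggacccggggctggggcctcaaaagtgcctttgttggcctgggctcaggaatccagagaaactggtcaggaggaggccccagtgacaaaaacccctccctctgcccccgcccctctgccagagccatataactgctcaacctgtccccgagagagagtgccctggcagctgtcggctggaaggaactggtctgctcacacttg

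The E-box begins 99 bases before the first CLDN18 start site and at base 37 of the transcribed sequence of CLDN3, and the windows of CLDN11, of CLDN4 and of the second CLDN18 start site do not hold these letters. Over all 35116 promoters of the table, 20.6% hold the E-box, and of the 49 promoters of the 30 genes with an entry 16 do, in 15 genes. Those include OCLN, TJP3, CLDN6, DSP and JUP, so the letters occur in promoters of genes that rose and of genes that did not pass. The letters AACNGGTT, the motif of grainyhead factors, are in 1.73% of all promoters and in 1 of the 49, that of CGN. The first CLDN11 window has 72% G and C bases and 36 CpG dinucleotides and the CLDN3 window 72% and 24, against medians of 58.7% and 14 over all promoters.

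**Figure D2:**
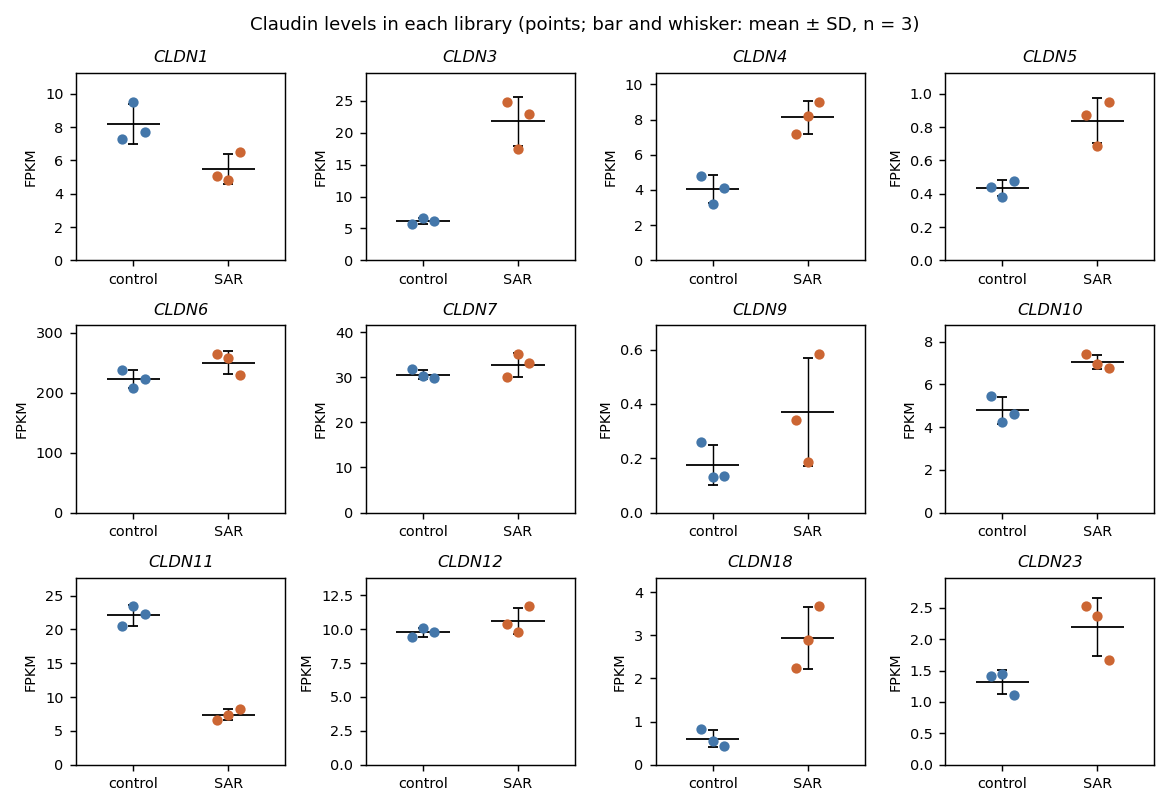
Level of each of the 12 claudins in FPKM (vertical axis, from 0, with its own scale in each panel) in the 3 control and 3 SAR libraries, with points for libraries and bar and whiskers for mean ± SD. CLDN3, CLDN4, CLDN5, CLDN10, CLDN18 and CLDN23 lie higher in all SAR libraries, CLDN1 and CLDN11 lower, and CLDN6, CLDN7, CLDN9 and CLDN12 overlap.

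CLDN10, which forms ion-selective channels between cells, was at 5.46, 4.25 and 4.63 FPKM in control and at 7.42, 6.97 and 6.75 FPKM with SAR. Its log2 fold change was 0.56 (SE 0.1002, adjusted p = 0.00770, limma). Whether strand was used in the counting is not given in the sources used here, and 46.1% of the exon bases of CLDN10 face exons of DZIP1 on the other strand, so reads of the genes may be mixed; DZIP1 itself had a log2 fold change of 0.11 (adjusted p = 0.169, limma). CLDN5, the claudin of endothelial barriers, was at 0.439, 0.382 and 0.479 FPKM in control and at 0.874, 0.688 and 0.952 FPKM with SAR, with a log2 fold change of 0.81 (SE 0.217, adjusted p = 0.0292, limma). CLDN23, an intestinal claudin, was at 1.42, 1.44 and 1.10 FPKM in control and at 2.53, 2.38 and 1.66 FPKM with SAR, with a log2 fold change of 0.68 (SE 0.183, adjusted p = 0.0302, limma). The calls of CLDN5 and CLDN23, which rested on 31 to 33 and 45 to 76 reads per control library, depended on single libraries. For CLDN5 limma's adjusted p ran from 0.0525 to 0.0877 without control 1, control 2, control 3, SAR 1 or SAR 3, and for CLDN23 from 0.0520 to 0.0953 without control 1, control 2, control 3, SAR 1 or SAR 2. After rescaling, the adjusted p of CLDN23 was 0.0595.

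CLDN1, a barrier claudin of the epidermis and of many other epithelia, was the second claudin that fell. It was at 7.29, 9.52 and 7.69 FPKM in control and at 5.06, 4.85 and 6.49 FPKM with SAR. The groups did not overlap, and the log2 fold change was -0.57 (SE 0.142, adjusted p = 0.0225, limma). Without control 2, control 3, SAR 1 or SAR 2 its adjusted p was between 0.0555 and 0.0719, and after rescaling of all libraries it was 0.0147.

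CLDN6, a claudin typical of pluripotent and embryonic epithelium, was by far the most abundant claudin in both groups. It was at 239, 207 and 223 FPKM in control and at 265, 257 and 229 FPKM with SAR. The groups overlapped, and the log2 fold change was 0.17 (95% interval -0.02 to 0.36, adjusted p = 0.148, limma). CLDN7, a common epithelial claudin, and CLDN12, which lacks the usual anchor to the plaque, did not pass either, with log2 fold changes of 0.09 and 0.11. Their levels were 29.8 to 31.8 FPKM in control and 30.0 to 35.2 FPKM with SAR for CLDN7, and 9.42 to 10.1 FPKM and 9.77 to 11.7 FPKM for CLDN12. CLDN9, whose gene lies 207 bases from CLDN6, was not tested and had 0.129 to 0.260 FPKM in control and 0.186 to 0.584 FPKM with SAR.

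The shares of the claudins in their summed level changed for the less abundant ones. Of the summed FPKM of the 12 claudins, CLDN6 made up 71.6 ± 1.69% (SD, n = 3) in control and 71.5 ± 2.56% with SAR. CLDN3 went from 1.99 ± 0.242% to 6.22 ± 1.12% and CLDN11 from 7.11 ± 0.808% to 2.13 ± 0.329%, so that CLDN3 passed from rank 6 to rank 3 and CLDN11 from rank 3 to rank 6 among the claudins by mean FPKM. In each library the ratio of CLDN3 to CLDN11, which does not depend on the scaling of libraries, was 0.278, 0.283 and 0.278 in control 1 to 3 and 3.75, 2.38 and 2.77 in SAR 1 to 3. The summed level of the 12 claudins was 311 ± 14.7 FPKM in control and 350 ± 14.1 FPKM with SAR. The ranks of CLDN10, CLDN4 and CLDN11 with SAR, with means of 7.05, 8.12 and 7.42 FPKM, lay within the spread of the libraries.

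**Figure D3:**
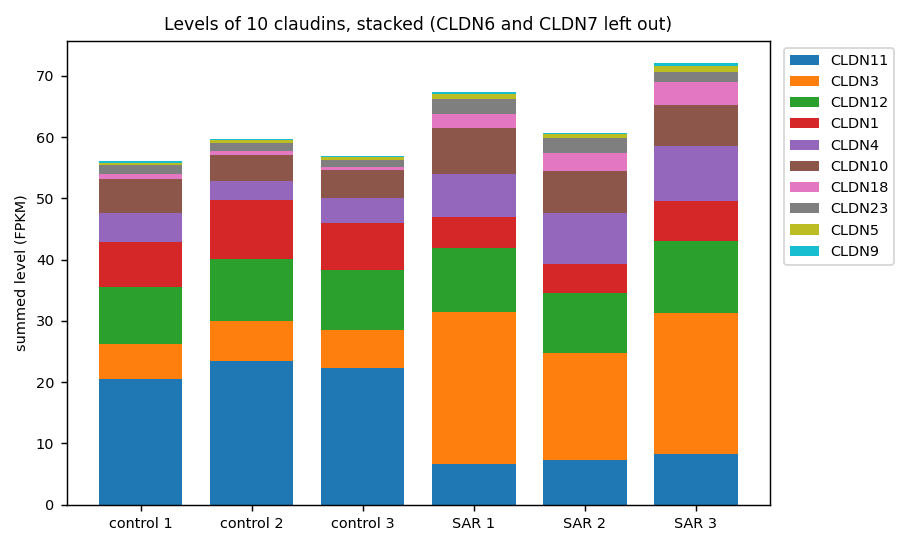
Summed level in FPKM (vertical axis, from 0) of 10 claudins in each library, with CLDN6 and CLDN7 left out because their levels would hide the others; each colour is 1 claudin. CLDN11 is the widest block in the 3 control libraries (20.5 to 23.4 FPKM) and CLDN3 in the 3 SAR libraries (17.4 to 24.8 FPKM).

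Of the other membrane proteins of the tight junction, OCLN, MARVELD2 and MARVELD3 were higher with SAR and F11R did not pass. OCLN encodes occludin, which runs along the claudin strands. It was at 2.51, 2.64 and 2.73 FPKM in control and at 5.45, 5.77 and 5.50 FPKM with SAR. The groups did not overlap, and the log2 fold change of 1.06 had the smallest SE of the 5 upregulated genes (SE 0.0676, adjusted p = 0.000332, limma), or 0.94 after rescaling. An annotated copy, OCLNP1, stood at 0.455 FPKM in control and 0.561 FPKM with SAR on average, and how reads were divided between it and OCLN is not known.

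MARVELD2, which lies 48.0 kb from OCLN on the same strand of chromosome 5, encodes tricellulin, a protein of the corners where several cells meet. It was at 3.60, 4.33 and 4.16 FPKM in control and at 5.27, 5.56 and 5.94 FPKM with SAR, with a log2 fold change of 0.47 (SE 0.0899, adjusted p = 0.00970, limma). MARVELD3, a relative of both, was at 1.65, 1.45 and 1.37 FPKM in control and at 2.22, 2.16 and 1.88 FPKM with SAR, with a log2 fold change of 0.46 (SE 0.114, adjusted p = 0.0227, limma). The occludin family thus rose in all its 3 members. For MARVELD3 the adjusted p was 0.0570 after rescaling and 0.0685 to 0.0809 without control 2, control 3, SAR 1 or SAR 2, and 18.1% of its exon bases face genes on the other strand, among them PHLPP2 (log2 fold change -0.22, adjusted p = 0.151, limma). F11R, the junctional adhesion molecule JAM-A, was abundant and level, at 49.2, 51.3 and 51.8 FPKM in control and 51.1, 50.9 and 50.9 FPKM with SAR. Its log2 fold change was 0.01 with a 95% interval of -0.10 to 0.12, and 36.6% of its exon bases are shared with AL591806.3 on the same strand.

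In the plaque under the tight junction, TJP3 and CGN were higher and TJP1 and CGNL1 did not pass. TJP3, the scaffold ZO-3, is found mainly in epithelia. It was at 3.71, 3.24 and 3.65 FPKM in control and at 8.39, 8.16 and 8.62 FPKM with SAR. With a mean of 3.53 ± 0.253 FPKM (SD, n = 3) in control and 8.39 ± 0.228 FPKM with SAR, it had a log2 fold change of 1.23 (SE 0.0724, adjusted p = 0.000238, limma), and 1.11 after rescaling. TJP1, the scaffold ZO-1 of epithelial and other cells, was at 10.5 to 12.2 FPKM in control and 11.03 to 11.5 FPKM with SAR, with a log2 fold change of -0.02 (95% interval -0.19 to 0.14). CGN, or cingulin, which links the plaque to myosin, was at 5.82, 5.10 and 5.21 FPKM in control and at 6.72, 7.32 and 8.24 FPKM with SAR, with a log2 fold change of 0.46 (SE 0.0936, adjusted p = 0.0120, limma). CGNL1, or paracingulin, was the most abundant of the plaque genes, at 19.0, 26.4 and 23.9 FPKM in control and 18.4, 20.5 and 26.1 FPKM with SAR. Its libraries overlapped widely, and its log2 fold change of -0.09 had a 95% interval of -0.48 to 0.29.

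**Figure D4:**
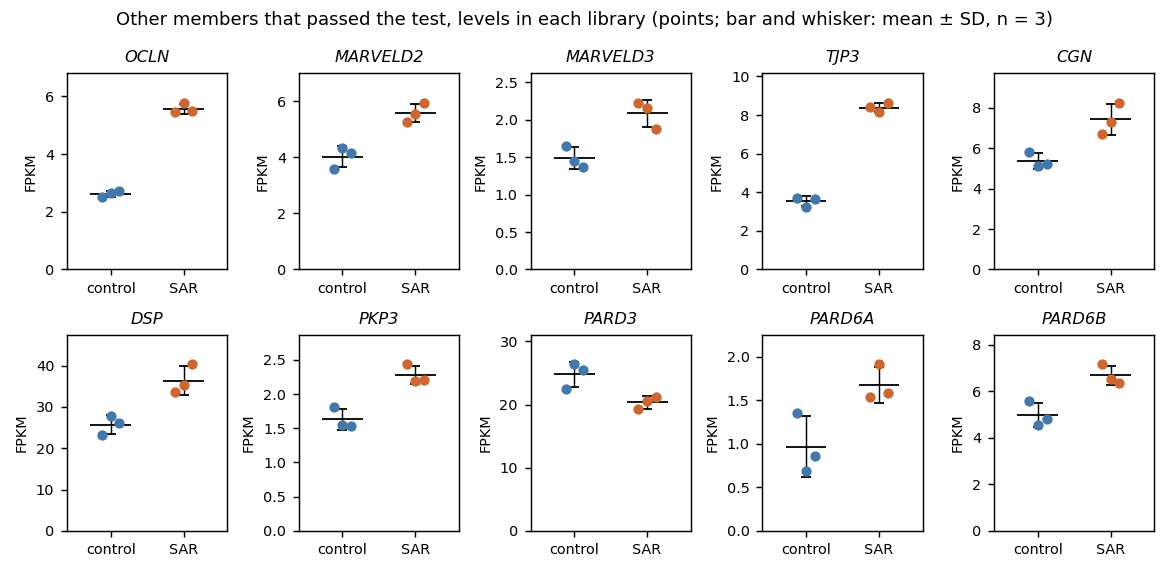
Level in FPKM (vertical axis, from 0, with its own scale in each panel) of the 10 genes outside the claudins that passed the test, in the 3 control and 3 SAR libraries, with points for libraries and bar and whiskers for mean ± SD. The groups do not overlap in any panel; PARD3 is the 1 gene of the 10 that was lower with SAR.

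Of the desmosome genes DSP and PKP3 were higher with SAR. DSP, or desmoplakin, which anchors keratin filaments to the desmosome, was at 23.2, 27.7 and 26.2 FPKM in control and at 33.7, 35.2 and 40.3 FPKM with SAR. Its log2 fold change was 0.50 (SE 0.0934, adjusted p = 0.00876, limma). PKP3, a plakophilin of the desmosomal plaque, was at 1.80, 1.54 and 1.54 FPKM in control and at 2.43, 2.19 and 2.21 FPKM with SAR. It had a log2 fold change of 0.46 (SE 0.103, adjusted p = 0.0156, limma), and its adjusted p was 0.0530 without control 2 and 0.0616 without control 3. JUP, or plakoglobin, which binds the tails of desmosomal cadherins, was the most abundant gene of the plaque at 32.5, 35.8 and 35.2 FPKM in control and 38.5, 37.9 and 38.996 FPKM with SAR. Its SAR libraries all lay above the control libraries, but its log2 fold change of 0.16 did not pass (adjusted p = 0.0639, limma). PKP2 and PKP4, other plakophilins, had log2 fold changes of -0.03 and -0.01 at mean levels of 16.6 and 9.79 FPKM in control.

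DSG2, the desmoglein of simple epithelia, was the most abundant desmosomal cadherin. It was at 26.2, 28.1 and 27.0 FPKM in control and at 24.5, 23.9 and 24.9 FPKM with SAR. All SAR libraries were below the control libraries, with a log2 fold change of -0.15 that did not pass as deposited (adjusted p = 0.0622, limma) and of -0.27 that did after rescaling (adjusted p = 0.0151, limma). DSC2, a desmocollin, was at 4.39 to 4.70 FPKM in control and 4.45 to 5.66 FPKM with SAR and did not pass, with a log2 fold change of 0.14. DSC3 and PKP1, which are typical of layered epithelium such as skin, were not tested, at 0.160 to 0.284 FPKM for DSC3 and 0.0597 to 0.250 FPKM for PKP1 over all libraries.

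None of the catenin and afadin genes passed as deposited (0 of 3), against 33.3% of all tested genes called in either direction. CTNNA1, the alpha-catenin that connects cadherins to actin, was the most abundant of them at 59.8, 61.5 and 61.5 FPKM in control and 57.2, 58.3 and 61.1 FPKM with SAR. Its log2 fold change was -0.05 (95% interval -0.16 to 0.07). AFDN, or afadin, which connects nectins to actin, had a log2 fold change of -0.16 and CTNND1, the catenin that stabilises cadherins at the membrane, one of -0.19. CTNND1 was at 2.15 to 2.48 FPKM in control and 1.92 to 2.06 FPKM with SAR. Exons of AP001931.1 and TMX2-CTNND1 on the same strand cover 4.64% of its exon bases, and how their reads were assigned is not known. At an unadjusted p under 0.05, 0 of the 3 passed in limma, and voom on recovered reads called AFDN and CTNND1 (adjusted p = 0.0148 and 0.0125). After rescaling all 3 were lower, with log2 fold changes of -0.17, -0.28 and -0.31 and adjusted p of 0.0488, 0.0346 and 0.0494 in limma for CTNNA1, AFDN and CTNND1. Of all tested genes 15.5% were then lower. 

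In the PAR and atypical protein kinase C complex, the scaffold genes moved in different directions. PARD3, which brings the complex to cell contacts, was at 22.5, 26.4 and 25.5 FPKM in control and at 19.2, 20.6 and 21.2 FPKM with SAR. Its log2 fold change was -0.28 (SE 0.0759, adjusted p = 0.0298, limma), with an adjusted p of 0.0761 to 0.104 without control 2, control 3, SAR 1 or SAR 2. PARD6B, an adaptor of the kinase, was at 5.57, 4.55 and 4.80 FPKM in control and at 7.15, 6.51 and 6.37 FPKM with SAR. It had a log2 fold change of 0.42 (SE 0.0924, adjusted p = 0.0151, limma), and its adjusted p was 0.0589 without control 3. PARD6A, its relative, was at 1.35, 0.690 and 0.857 FPKM in control and at 1.54, 1.91 and 1.58 FPKM with SAR, with a log2 fold change of 0.78 (SE 0.234, adjusted p = 0.0424, limma). That call rested on 24 to 48 reads per library. The adjusted p of PARD6A was 0.0660 after rescaling and 0.0706 to 0.126 without control 2, control 3, SAR 1, SAR 2 or SAR 3. PRKCI, the kinase itself, was at 32.8, 34.8 and 35.2 FPKM in control and 30.1, 28.96 and 32.8 FPKM with SAR. The highest SAR value was just under the lowest control value, and the log2 fold change of -0.16 did not pass (adjusted p = 0.0876, limma), while it did without SAR 3 (-0.21, adjusted p = 0.0331) and after rescaling (-0.29, adjusted p = 0.0213). PRKCI lies 112.9 kb from CLDN11 on the same strand of chromosome 3.

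Of the Crumbs and Scribble genes 0 of 6 passed in limma's test, as deposited or after rescaling. Most genes of the whole table did not pass either, with 33.3% of all tested genes called as deposited and 29.2% after rescaling. CRB3, the membrane protein of the Crumbs complex in epithelia, was at 8.53, 8.01 and 9.57 FPKM in control and 8.54, 8.26 and 7.71 FPKM with SAR, with a log2 fold change of -0.09 (95% interval -0.28 to 0.11). PALS1, its scaffold, had a log2 fold change of 0.13. LLGL1, a basolateral protein that opposes the atypical kinase, was at 14.1, 15.7 and 15.7 FPKM in control and 12.6, 15.0 and 15.3 FPKM with SAR, with a log2 fold change of -0.09 (95% interval -0.30 to 0.13). Its relative LLGL2 and the basolateral scaffolds SCRIB and DLG1 had log2 fold changes of 0.10, 0.13 and 0.11. At an unadjusted p under 0.05, 0 of the 6 passed as deposited, and voom on recovered reads called 0 of them. The 95% intervals of the 6 log2 fold changes lay between -0.30 and 0.35.

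Beyond these 42 genes, 79 other genes of junctions and polarity were listed, also with earlier results known, of which 59 could be tested. Of the 59, 18 were higher with SAR (30.5%) and 8 lower (13.6%), with a median log2 fold change of 0.08, against 23.7% and 9.55% of all tested genes. After rescaling the counts were 12 and 12. The other tight junction genes numbered 6 higher and 3 lower of 22 (27.3% and 13.6%), with a median of 0.07. They numbered 5 and 5 after rescaling. The other desmosome and keratin genes numbered 3 and 0 of 5 (0 lower at an unadjusted p under 0.05 in limma and 0 with voom). The other adherens junction genes numbered 4 and 2 of 10, and the other polarity genes 5 and 3 of 22. Only AMOT and CRB2 were past the fold threshold, both upregulated. AMOT, or angiomotin, a junction protein that binds YAP, was at 1.78, 1.91 and 2.10 FPKM in control and at 5.24, 6.07 and 7.07 FPKM with SAR, with a log2 fold change of 1.61 (adjusted p = 0.000514, limma). CRB2, a relative of CRB3 that is found in the epiblast and other early epithelia, was at 0.439, 0.148 and 0.292 FPKM in control and at 1.10, 1.37 and 1.64 FPKM with SAR, with a log2 fold change of 1.95 (adjusted p = 0.00594, limma), or of 0.87 with a pseudocount of 1 FPKM. AMOTL1, a relative of AMOT named after its values were seen, was lower at a log2 fold change of -0.66 (adjusted p = 0.0112, limma).

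The most abundant genes of these lists were among the partners of the claudins and keratins. EPCAM, an adhesion protein that binds and stabilises CLDN7, went from 169 ± 1.30 FPKM (SD, n = 3) in control to 265 ± 24.5 FPKM with SAR, a log2 fold change of 0.64 (adjusted p = 0.00177, limma). SPINT1, an inhibitor of the protease that cuts EPCAM, was higher at a log2 fold change of 0.47, and CXADR, an adhesion molecule of the tight junction, did not pass at 0.06. Among the keratins of simple epithelium, KRT18 was higher at 0.46, while KRT8 and KRT19 did not pass, at 0.19 and 0.29. CDH2 and VCL, a cadherin and an actin linker of adherens junctions, were lower at -0.33 and -0.65, and NECTIN2 was higher at 0.31. The adjusted p of CDH2 was 0.0581 to 0.0755 without control 3, SAR 1 or SAR 2, and that of VCL 0.0517 without control 3. CDH1, the epithelial cadherin, was named after its values were seen and was higher at 0.57 (adjusted p = 0.00515, limma). Of the most abundant polarity genes, VANGL2, of planar polarity, and CDC42, the small GTPase that binds PARD6 proteins, were lower at -0.50 and -0.35, and the kinase gene MARK4 did not pass at -0.14. The adjusted p of VANGL2 was 0.0552 to 0.0600 without control 2, control 3 or SAR 2. CLDN19 and CLDN20, claudins outside the 42 genes and named after their values were seen, had log2 fold changes of 0.69 and -0.94 (adjusted p = 0.00540 and 0.0400, limma). CLDN20 rested on 5 to 9 reads per SAR library, and its adjusted p was 0.0855 without SAR 1 and 0.102 without SAR 2.

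The last list held 18 genes known to promote or repress epithelial genes, transcription factors apart from ESRP1 and ESRP2, which regulate splicing. Of these, 12 could be tested, and 3 were higher and 0 lower with SAR in limma. At an unadjusted p under 0.05, 0 were lower in limma, while voom called 2 lower, ESRP2 and SNAI1. The 25% that were higher is close to the 23.7% of all tested genes. OVOL2, a repressor of mesenchymal genes, was at 1.76, 1.67 and 2.07 FPKM in control and at 3.29, 3.62 and 3.51 FPKM with SAR, with a log2 fold change of 0.89 (adjusted p = 0.00172, limma). ELF3, an epithelial ETS factor, and KLF5, a factor of gut and embryonic epithelium, were higher at 0.63 and 0.46 (adjusted p = 0.00604 and 0.00893, limma). In all 3 the groups did not overlap, and after rescaling the 12 genes counted 3 higher and 2 lower, against 13.7% and 15.5% of all tested genes. ZEB2, a repressor of epithelial genes, was too low to be tested. It was at 0.00811 to 0.0507 FPKM in control and 0.147 to 0.260 FPKM with SAR, on 4 to 29 and 64 to 125 reads. EHF, also untested, was at 0.00801 to 0.0483 FPKM in control and 0.0892 to 0.123 FPKM with SAR. The untested genes GRHL3, OVOL1, TFAP2A and ZEB1 overlapped between the groups.

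**Figure D5:**
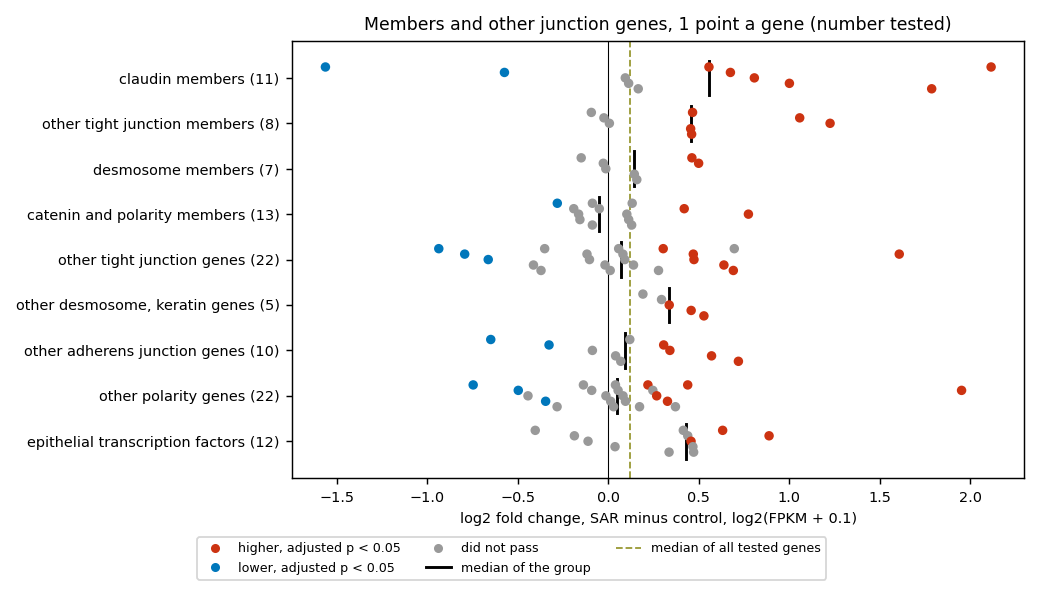
Log2 fold change (SAR minus control, on the log2(FPKM + 0.1) scale, horizontal axis) of each tested gene, 1 point a gene, in groups of the 42 genes (top 4 rows), of the other junction and polarity lists, and of the list of epithelial regulators (labelled transcription factors). Red points were higher, blue lower and grey did not pass. Black bars are group medians and the dashed line is the median of all tested genes. The claudins span from -1.56 to 2.12, and the group medians run from -0.05 in the catenin and polarity genes to 0.56 in the claudins.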

How the data were processed

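Poly(A)-selected, paired-end RNA-seq of 3 control and 3 SAR samples of H1 cells was analysed. The values deposited by the authors are FPKM, with a column for each library and a row for each of 40396 Ensembl gene IDs, normalised to each library's total and to gene length. The submitters' processing notes name HISAT2, featureCounts of Subread, DESeq2 and GRCh38.p13; the annotation release and strand setting are not given in the sources used here. The paper's methods name DESeq2 for testing, but FPKM are not counts, so limma 3.58.1 was used in R 4.3.3 (lmFit, eBayes with trend) on log2(FPKM + 0.1), two-sided and without a replicate block. The 16371 genes that averaged 0.5 FPKM or more were tested, and p-values were adjusted by Benjamini and Hochberg's method over all of them. On this scale the change of low genes is understated. A gene was called at an adjusted p under 0.05, and upregulated or downregulated with an absolute log2 fold change above 1 as well. With 3 against 3 libraries an exact permutation test of 1 gene cannot go below p = 0.1. Tables and plots were made with Python 3.11.15, pandas 2.3.3, numpy 2.4.6 and matplotlib 3.10.9.

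Whole reads behind the FPKM were recovered for 40382 of the 40396 genes (99.965%, within 0.001 reads), each with the gene length that makes its FPKM whole reads, which equals the exon length in GENCODE 29 for 22683 genes. They give the depth behind each value, cover counting error only, and served an alternative test with voom that was added after seeing the data. Symbols came from a table in which 30235 of the IDs have one, positions and overlaps from GENCODE 29 on GRCh38, and promoters from RefSeq on GRCh38.p14. The test was checked on simulated data. Values in each library are given for genes with an adjusted p under 0.05 and for the most abundant gene of each of the 9 classes, and from the other lists for genes past both thresholds and the 3 most abundant of each. Genes of the epithelial regulator list are named where they passed, and ESRP1 and ESRP2 as splicing regulators. The untested genes of that list were named after their values were seen. The members and lists were chosen with earlier results of these data known. Alternatives were a replicate block, each library left out in turn, pseudocounts of 1 and 0.01, a minimum of 1 FPKM or none, eBayes without trend, quantile normalization and median-ratio rescaling.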

Additional observations from a re-analysis of the deposited data

How the results depend on the processing

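The counts were compared under 15 alternatives. Shares of all tested genes were counted only as deposited, after median-ratio rescaling and with voom. Counts under the other alternatives therefore do not show whether these genes moved differently from the whole table. All 18 called genes kept their direction, and CLDN3, CLDN4, CLDN10, CLDN11, CLDN18, OCLN, MARVELD2, TJP3, CGN and DSP (10 of the 18) kept their call under all 15; the others (8) lost it under at least 1. Of the 39 tested genes, those higher (15) came to 9 to 13 with 1 library left out, the 9 without control 3. They came to 12 after rescaling, 10 with quantile normalization, 13 with voom and 11 with no filter on low values. Those lower (3) were 1 with no filter on low values, where more genes were tested, 8 after median-ratio rescaling, 5 with quantile normalization and 7 with voom on recovered reads, and 1 to 4 with 1 library left out. Those upregulated (5) were 3 with a pseudocount of 1, with rescaling, with quantile normalization and with voom, and 4 to 6 with 1 library left out; CLDN11 remained the 1 downregulated gene throughout. The median (0.13) was 0.011 after rescaling, 0.043 with quantile normalization, 0.0125 with voom and 0.0928 to 0.151 with 1 library left out. Of the other junction and polarity genes, 8 were lower, against 14 with voom and 4 to 13 with 1 library left out (4 without control 3, 5 without SAR 2, 13 without SAR 3). Rescaling, quantile normalization and voom take out the shift of the typical gene by construction; the cause of the other moves was not tested.

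Only values that had not passed the test changed sign. With rescaling and with voom, in that order, CLDN7 was -0.0276 and -0.028, CLDN12 -0.0083 and -0.00805, F11R -0.12 in both, LLGL2 -0.018 and -0.0183, DLG1 -0.00628 and -0.00599 and CXADR -0.0643 and -0.0647. With quantile normalization, DLG1 was -0.0124 and PALS1 -0.00958. With 1 library left out, F11R ran from -0.0156 to 0.0212, TJP1 from -0.0876 to 0.0225, CGNL1 from -0.235 to 0.0165, PKP4 from -0.0319 to 0.0136 and LLGL1 from -0.139 to 0.000879.

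Same-numbered control and SAR libraries did not deviate together (correlations of 0.0729, 0.00286 and 0.0247). With 3 libraries per group this check cannot exclude a batch shared by same-numbered libraries, and the labels do not say. With a replicate block 13 of the 39 were higher and 3 lower, 5 upregulated and 1 downregulated. Of the other junction and polarity genes 16 were higher and 8 lower. The shares of all tested genes with the block were not counted. CLDN5 and PARD6A lost their call (adjusted p = 0.0561 and 0.0649, limma). Not every library correlated best with its own number.

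Of the called genes, CLDN5, CLDN18, CLDN23 and PARD6A had the fewest reads, 24 to 76 per control library; CLDN18 kept its call under all 15 alternatives and the other 3 did not. The part of depth in this was not tested. Of the other junction genes named, CDH2, VCL, VANGL2 and CLDN20 lost their call under at least 1 alternative.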

Other observations

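The length behind the deposited FPKM differed by more than 10% from the exon bases in GENCODE 29 for 8 of the 42 genes and was the longer of the 2 values for 7 of them. It came out at 15212 bases against 8798 for CTNND1, 14825 against 8743 for PALS1, 11259 against 6761 for OCLN, 9492 against 6190 for DSG2, 16552 against 11001 for DLG1, 13340 against 10093 for DSP and 4321 against 3732 for CLDN11, and for CLDN9 at 1583 against 2050. The levels per length of these genes depend on that choice, while their changes between groups do not.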
